A study of Mus musculus with 3 samples.

Results

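TR9 is a mouse leukemia line driven by the fusion protein TBLR1-RARα (TR), and its transcriptome was set against that of control bone marrow across all genes. The comparison took every gene listed in the TR9 or the control library, 16303 of the 16742 genes listed in the series, and a gene that a library did not list counted as 0 in it. Control RNA came from lin- bone marrow cells, those left after depletion of cells with mature lineage markers, of wild-type C57BL/6 mice. TR9 RNA came from bone marrow cells of TBLR1-RARa mice on the C57BL/6 background, sorted for the GFP that the retrovirus expresses beside TR. The TR9 mice were the third generation of a serial transplant that began from 1 primary mouse, so TR9 is 1 line, and its recipients were not irradiated. A second line of the same construct and generation, TR1, came from another primary mouse and is used here only to show where TR9 stood apart. The mice of all 3 groups were 6 to 8 weeks old by the labels, and the labels give no treatment. Each library pooled 3 mice, and there was 1 library per group, so that no difference below has a replicate check.

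RARα is a nuclear receptor that, with its partner RXR, binds DNA and recruits corepressors until retinoic acid releases them and lets target genes be transcribed. Fusions that join RARα to another protein hold promyelocytes, the granulocyte precursors that build the primary granules, at that stage and cause acute promyelocytic leukemia. TBLR1 is itself a subunit of the NCoR and SMRT corepressor complexes.

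The libraries were of similar depth, with 5488778, 5571409 and 5129662 expected counts in control, TR1 and TR9, and 14817 to 15302 genes listed in control and TR9. An expected count is the number of reads that RSEM assigns to a gene, and it need not be whole where reads match several genes. Here a gene is called higher or lower when the reads of the 2 libraries differed by a conditional exact Poisson test with a false discovery rate no higher than 0.001 and the FPKM, the count scaled for transcript length and library total, gave a log2 ratio of 1 or more in either direction. This test compares the reads of 2 libraries, not the conditions, and intervals in brackets are 95% exact intervals of the log2 ratio that speak only to counting error. For a gene at 0 counts in one library, the ratio was computed against 3 counts and is a bound.

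Of the 16303 genes, 1527 (9.37%) were called higher in TR9 and 1766 (10.8%) lower, and these 2 percentages are the background for the counts of each group below. The called genes were chosen for differing between the 2 libraries, so their shares of the RNA differ too, and only the sizes are described. Genes called higher held 5.02% of the control counts and 21.0% of the TR9 counts, and genes called lower held 15.5% and 4.75%. A difference of at least 8-fold was reached by 407 of the higher and 596 of the lower genes. Of the called genes 53.6% were lower, but with TMM scaling, which sets the bulk of genes level, this share was 46.7%, and with TPM scaling it was 60.1%. Of all 13852 genes over the floor, 7697 had a log2 ratio below 0 and 6145 above 0, and the median was -0.13.

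**Figure D1:**
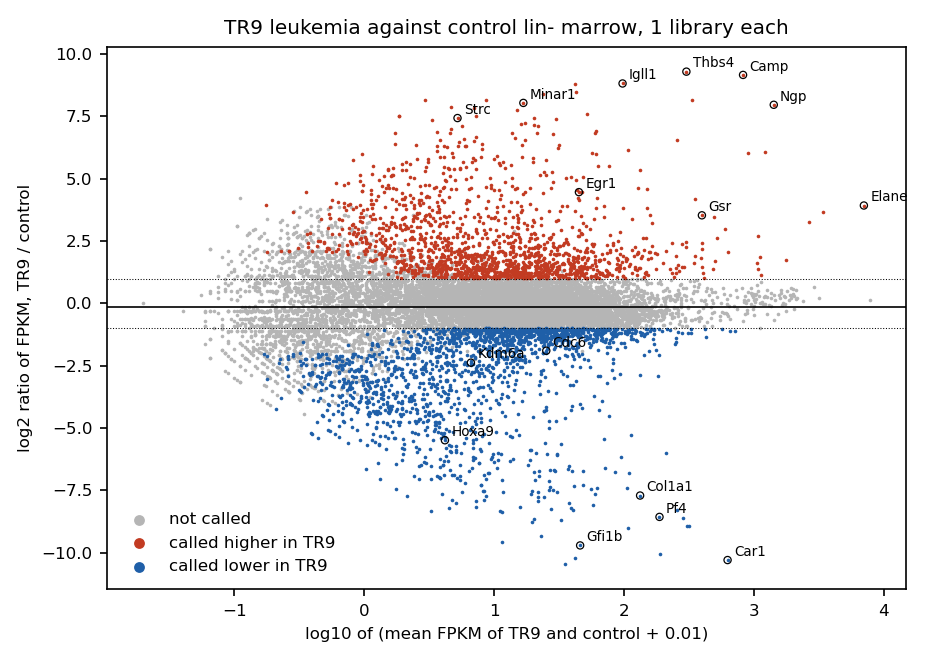
Log2 ratio of FPKM, TR9 over control, against the log10 of the mean FPKM of both libraries, for the genes above 3 counts in either library. Red points were called higher, blue points lower and grey points neither; dotted lines mark a log2 ratio of 1 in either direction, the solid line the median of -0.13, and ringed genes are named. The ringed genes furthest from the median lie below -10 (Car1) and above 9 (Camp, Thbs4).

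The genes that check the labels came first. Rara had 58.9 expected counts in control, against 1168 in TR1 and 359 in TR9, a log2 ratio of 2.71 (2.31 to 3.13) in TR9 against control. Its counts were not whole, and whether reads of the human fusion cDNA in the vector were counted under Rara was not tested. Tbl1xr1, the gene of TBLR1, had 854 counts in control and 981 in TR9 and was not called. Kit, the stem cell factor receptor that marks immature cells, had 2115 counts in control, against 853 in TR1 and 1684 in TR9, and stayed uncalled between TR9 and control (log2 ratio -0.23, -0.33 to -0.14). Cd34, a progenitor surface marker, fell from 1039 counts to 57 (log2 ratio -4.13), whereas Ly6a, the gene of Sca-1, rose from 50.0 to 434. Itgam, the gene of the myeloid integrin CD11b, had 171 counts in control and 199 in TR9 and was not called, while TR1 had 921. Ptprc, the gene of the leukocyte antigen CD45, had 954 counts in control, against 2369 in TR1 and 539 in TR9 (log2 ratio -0.72, not called). TR9 thus kept Kit RNA near the control level, with little Cd34 and with Itgam near control.

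Granulocyte genes were among the most abundant of those that rose. Of 14 genes of the primary granule stage, 8 were called higher and 2 lower (median log2 ratio 1.59). Elane, neutrophil elastase, had 866 FPKM in control and 13178 in TR9, the highest FPKM of any gene in TR9. Its expected counts were 4272 and 60820, a log2 ratio of 3.93 (3.88 to 3.97). Ctsg, cathepsin G, rose from 2717 to 24498 counts (log2 ratio 3.27), and Prtn3, proteinase 3, from 2514 to 8648 (1.88). Mpo, myeloperoxidase, behaved differently from these 3 proteases of the same granules. It had 31884 counts in control, against 109146 in TR1 and 46495 in TR9. The log2 ratio of 0.64 in TR9 was below the threshold. Igfbp4 and Ctsc were the 2 members called lower, with log2 ratios of -2.92 and -1.30.

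Genes of later granulocyte stages were also higher in TR9, but not evenly. The control cells had been depleted of cells with mature lineage markers, whereas the TR9 cells were sorted on GFP. The part of this in the ratios of granulocyte genes, and of Itgam and Ly6c2, cannot be told apart. Of 24 listed, 17 were called higher and none lower (median 3.20), and their summed level was 284 FPKM in control, against 32285 in TR1 and 11305 in TR9. Camp, the cathelicidin of secondary granules, had 9 counts in control and 4842 in TR9 (log2 ratio 9.16, 8.24 to 10.29), and Ngp, neutrophilic granule protein, had 72 and 16860 (7.97, 7.63 to 8.32). Olfm4 rose from 21 to 5620 counts and Cd177, a neutrophil surface protein, from 8 to 1457. Other members of the same list were not called. Anxa1, annexin A1, had 639 counts in control, against 5868 in TR1 and 607 in TR9 (log2 ratio 0.02, -0.14 to 0.18 against control), Cxcr2, a neutrophil chemokine receptor, had 191, 490 and 131, and Retnlg had 23, 134 and 21. These 3 were named after their values were seen. The NADPH oxidase, which makes superoxide, was called higher at 6 of 9 genes and lower at none (median 1.41), although edgeR's exact test, run with an assumed coefficient of variation of 0.2 between samples, called 1 gene higher. Ncf4, a cytosolic subunit, had 162 and 433 counts in control and TR9. Cybb, its membrane catalytic subunit, had 255, 1758 and 441 counts in control, TR1 and TR9, and was below the threshold in TR9 against control.

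Of 24 transcription factors of the granulocyte and monocyte lineages, 13 were called higher and 4 lower (median 1.53). Under edgeR's exact test with the assumed variation, 9 were higher and 0 lower. The C/EBP factors drive granulocyte genes, and Cebpa rose from 470 to 1945 counts (log2 ratio 2.14) and Cebpe, the factor of the secondary granule stage, from 71 to 571 (3.10, 2.75 to 3.48). Spi1, the gene of PU.1, rose from 434 to 1690 counts, and Gfi1, a repressor that favors granulocytes over monocytes, from 193 to 2553 (3.84, 3.63 to 4.06). The highest log2 ratio of the list, 4.46, was that of Egr1, with 66 counts in control and 1364 in TR9. Egr1 is described below with the immediate early genes. Among the lower members were Irf4, Irf5 and Klf4, factors known from monocytes, macrophages and dendritic cells. Irf8, which directs monocyte and dendritic cell fates, had 1059 counts in control, against 39 in TR1 and 644 in TR9, without a call in TR9 against control (log2 ratio -0.62). Myb and Runx1, factors of immature blood cells, were not called either, with log2 ratios of 0.14 and 0.68.

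Monocyte and macrophage markers split into 13 lower and 4 higher of 23 (median -1.29). Ly6c2 had 2339 counts in control and 27577 in TR9, as counts that were not whole, and F13a1 rose from 2118 to 6048. Csf1r, the receptor of macrophage colony-stimulating factor, fell from 510 counts to 81 (-2.56, -2.92 to -2.22). The complement genes C1qa, C1qb and C1qc of resident macrophages had 104, 86 and 86 counts in control and 2, 8 and 5 in TR9. Of 14 dendritic cell genes, 4 were lower and none higher.

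Erythroid genes were near absent. Of 27 listed, 26 were called lower (median -6.76), their summed level was 4163 FPKM in control and 124 in TR9, and 7 were at 0 in TR9. Car1 and Car2, carbonic anhydrases of red cells, had 8107 and 6230 counts in control and 6 and 12 in TR9. Tfrc, the transferrin receptor that all dividing cells use to take up iron, was the called member with the smallest difference, 3251 counts against 757 (-2.01, -2.12 to -1.89). The exception was Mt2, a metallothionein, with 185 and 116 counts. Of 25 megakaryocyte and platelet genes, 22 were lower and 1 was higher (median -6.00), and 5 were at 0 in TR9. Gp5, a subunit of the von Willebrand factor receptor of platelets, had 477 counts in control and 1 in TR9, and Ppbp, a platelet chemokine, had 2250 and 2. The member that rose was Gng11, from 93 to 284 counts (1.71, 1.36 to 2.06). Nfe2 and Fli1, factors that megakaryocytes share with other blood cells, had 893 and 596 counts in control and 1646 and 752 in TR9 and were not called, although Nfe2, at a log2 ratio of 0.98, passed under TMM. Of 17 factors of both lineages, 11 fell, led by Gfi1b with 870 counts in control and 1 in TR9, and Gata1 with 999 and 6. In these bulk libraries, fewer cells of a type and less RNA per cell cannot be told apart.

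**Figure D2:**
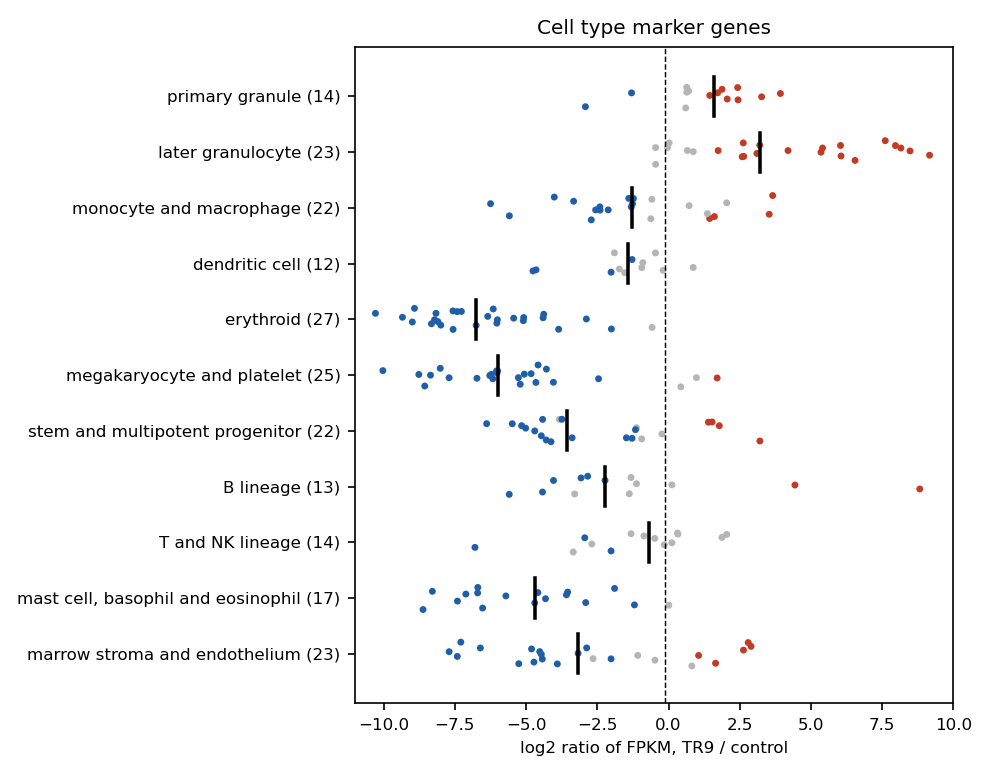
Log2 ratio of FPKM, TR9 over control, of the genes of each cell type list above 3 counts in either library (their number in brackets). Each point is 1 gene, red if called higher, blue if called lower and grey if neither; black bars mark list medians and the dashed line the median of all genes. Erythroid genes lie between -10.29 and -0.58, and later granulocyte genes between -0.45 and 9.16.

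Promoters of these genes are shown because Gata1 and Gata2, whose products bind the GATA motif, were lower too. RefSeq windows of 250 bases before to 50 after a start (GRCm38.p6) were found for 12698 of the 16303 genes, 15970 windows in all. The letters AGATAA, the GATA motif, on either strand, were in 7.19% of all windows, 179 of the 1790 windows of genes called lower and 100 of the 1537 of genes called higher (6.51%). They were in 9 of 22 erythroid windows (40.9%) and 5 of 17 megakaryocyte windows (29.4%), but also in 6 of 20 later granulocyte windows (30.0%), whose genes moved the other way. A match is a description of the letters and was not tested as a binding site. The 250 bases before the start are given 5′ to 3′ on the strand of the gene, with the motif in capitals. Pklr, the red cell pyruvate kinase, had 1282 counts in control and 1 in TR9 (log2 ratio -10.22, -15.53 to -7.74), and its motif begins 35 bases before the start. In Gp5 the motif is on the opposite strand at 2 places, 93 and 77 bases before the start. Ppbp is shown because its window was the only one of all 15970 with a DR5 retinoic acid response element searched as exact letters, 2 direct repeats of AGGTCA spaced by 5 bases, which begins 246 bases before the start on the opposite strand. The element has variants that this search left out.
Pklr, chr3:89135892-89136141, plus strand: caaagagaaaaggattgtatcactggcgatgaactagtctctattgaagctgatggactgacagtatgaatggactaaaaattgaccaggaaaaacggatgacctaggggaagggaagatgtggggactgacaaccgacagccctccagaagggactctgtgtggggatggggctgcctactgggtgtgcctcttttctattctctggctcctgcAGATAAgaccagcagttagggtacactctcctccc
Gp5, chr16:30310782-30311031, minus strand: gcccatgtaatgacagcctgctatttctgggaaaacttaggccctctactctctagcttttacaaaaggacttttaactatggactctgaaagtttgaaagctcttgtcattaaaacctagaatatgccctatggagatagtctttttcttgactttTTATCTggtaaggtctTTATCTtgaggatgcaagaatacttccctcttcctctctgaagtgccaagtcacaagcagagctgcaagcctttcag
Ppbp, chr5:90768268-90768517, plus strand: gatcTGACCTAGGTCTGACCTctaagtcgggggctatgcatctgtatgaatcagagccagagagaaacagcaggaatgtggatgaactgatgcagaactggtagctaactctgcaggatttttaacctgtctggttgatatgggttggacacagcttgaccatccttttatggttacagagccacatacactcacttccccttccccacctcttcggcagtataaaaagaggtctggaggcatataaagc

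Several other lineages were lower as well, but not all. Of 24 T and NK lineage genes, 3 were lower (12.5%, near the share of all genes) and none was higher. Of 19 mast cell, basophil and eosinophil genes, 16 were lower and none higher (median -4.70), with Prg2, the eosinophil major basic protein, at 2520 and 6 counts. Stem and multipotent progenitor genes counted 14 lower and 4 higher of 22 (median -3.56). Meis1 and Hoxa9, homeobox genes of stem cells and of many myeloid leukemias, had 283 and 144 counts in control and 3.05 and 0 in TR9. Of all 24 HoxA, HoxB, Meis and Pbx genes, 7 were lower, none was higher, and 14 were at 0 in TR9. Gata2, a factor of stem cells, fell from 915 counts to 33 (-4.70, -5.25 to -4.20). The 4 higher members were Ly6a, Erg, Tie1 and Ifitm1. Erg, an ETS factor of stem cells that is also an oncogene in leukemia, rose from 155 to 499 counts (1.78, 1.52 to 2.05).

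The B lineage list held a pair of genes against its trend. Of 19 genes, 6 were lower, with Dntt, the terminal transferase of lymphoid progenitors, at 155 counts in control and 0 in TR9, at least 48.3-fold lower. Igll1, however, had 2 counts in control, against 63 in TR1 and 847 in TR9 (log2 ratio 8.82, 6.96 to 11.87 against control, and 3.87, 3.50 to 4.26 against TR1). Vpreb1 had 1, 14 and 20. These genes encode the parts of the surrogate light chain of pre-B cells, while Ms4a1, Ebf1, Cd79a and Cd79b, which define B cells, had 0 or 1 count in TR9. The list as a whole had a summed level of 53.6 FPKM in control and 207 in TR9, of which Igll1 held 195.

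Marrow stroma and endothelium genes counted 14 lower and 5 higher of 23 (median -3.18). Col1a1, collagen I of osteoblasts and fibroblasts, had 6904 counts in control and 31 in TR9. The 5 higher members were Pecam1, the adhesion molecule CD31 that leukocytes also carry, Pdgfrb, a growth factor receptor, Kitl, the ligand of Kit, Spp1 and Runx2. Pecam1 had 746 counts in control, against 875 in TR1 and 4338 in TR9 (2.63, 2.52 to 2.74 against control). Pdgfrb had 146, 273 and 950 counts, and Kitl 17, 13 and 118. The endothelial genes Kdr and Emcn were at 0 in TR9, and Cdh5 had 1 count.

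Genes of cell division were lower in TR9 than in control, by small ratios spread over nearly all of them. Of 40 genes of origin licensing and the replication fork, 38 had a log2 ratio below 0, 19 were called lower and none higher (median -0.96, from -1.90 to 0.31). Cdc6, which loads the replicative helicase, fell from 997 counts to 251 (-1.90, -2.10 to -1.69), and its partner in licensing, Orc1, from 253 to 74. Of 40 genes of mitosis and the spindle, 38 were below 0, 18 were called lower and none higher (median -0.91). Ccna2, cyclin A2, fell from 2321 to 722 counts (-1.59), and Mki67, the proliferation marker Ki-67, from 14079 to 6484 (-1.02, -1.07 to -0.98). Since these medians sit near the threshold of 1, the counts of calls depended on scaling, with 13 and 15 lower under TMM and 23 and 20 under TPM, and edgeR's exact test with an assumed variation of 0.2 called 1 gene in each list. Erythroid genes, which mark a lineage that divides fast, fell in the same comparison, and their part in these differences was not tested. The E2F motif TTTGGCGC, on either strand, was in 6 of 36 replication promoters (16.7%) and in 0.827% of all windows. It was in 0.726% of windows of genes called lower and 0.455% of those called higher, both below the share of all windows.

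Regulators of the G1 phase, in which cells commit to divide, moved in both directions. Of 24, 7 were lower and 2 higher (median -0.70), and edgeR's exact test with the assumed variation left 4 lower and 0 higher. Ccne1, cyclin E1, fell from 533 counts to 44 (-3.50, -3.98 to -3.06) and Ccnd2, cyclin D2, from 842 to 70 (-3.49, -3.86 to -3.14). Cdk6, a kinase that the D cyclins activate, rose instead, from 774 to 2070 counts (1.51, 1.40 to 1.64), as did the inhibitor Cdkn1a, from 47 to 144. The Myc gene itself, a driver of growth, had 1975 and 2212 counts and was not called, whereas Mxd4, Mxi1 and Mlx of its network were called higher, at log2 ratios of 1.75, 1.51 and 1.44. Of the 12 genes of the MYC, MAX and MXD list, these 3 were higher and 1 was lower. By edgeR's exact test with the assumed variation, 0 were higher and 1 was lower.

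Biosynthetic genes were mostly not called. Of 79 cytosolic ribosomal protein genes, none was called, and all lay between -0.43 and 0.76 (median 0.24, and 0.35 under TMM and 0.14 under TPM). Of 30 genes of ribosome assembly, 28 were below 0 and 5 were called lower (median -0.79), among them Fbl, fibrillarin, from 1670 to 723 counts. Of 20 aminoacyl-tRNA synthetases, which charge tRNAs with amino acids, 19 were below 0 and 5 were called lower, with Hars at 887 and 273 counts. Of 37 proteasome genes, 32 were below 0 and 4 were called lower (10.8%, the share of all genes). None of these 4 lists had a gene called higher, and edgeR's exact test with the assumed variation called none of their genes. The endoplasmic reticulum list had 4 higher and 1 lower of 28, and 1 of each under that test, and the Reactome set of the unfolded protein response had 1 higher of 15, below the background share. Xbp1, a factor of the unfolded protein response, rose from 589 to 1875 counts (1.77, 1.64 to 1.91). Ern1, the sensor that splices Xbp1 RNA, had 339 counts in control, against 289 in TR1 and 712 in TR9. Asns, asparagine synthetase, was the member that fell, from 701 to 185 counts.

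Metabolic genes moved in both directions. Of 24 glycolysis genes, 7 were higher and 5 lower (median 0.77), and 3 and 2 by edgeR's exact test. Gpi1, glucose phosphate isomerase, rose from 3779 to 14941 counts (2.08, 2.03 to 2.13), although its counts were not whole. The glucose transporter Slc2a1 rose from 42 to 156 counts, while another, Slc2a3, fell from 572 to 35 (-3.94, -4.47 to -3.44). Hexokinases showed the same kind of exchange, with Hk1 at 3265 and 1032 counts and Hk2 at 292 and 590. Slc2a3, Hk1 and Pfkm fell together with the erythroid and platelet genes, and whether they came from those cells was not tested. Of 54 respiratory chain genes, 4 were lower (7.41%, below the share of all genes) and none was higher. Of 21 citric acid cycle genes, all lay below 0 and 5 were called lower (median -0.49). Under TMM 2 citric acid cycle genes were called lower, and edgeR's exact test with the assumed variation called no gene of these 2 lists.

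Of 24 genes of serine, folate and nucleotide synthesis, which supply building blocks for DNA, 11 were lower and 1 was higher (median -0.90), against 1 lower and 0 higher by edgeR's exact test with the assumed variation. Mthfd1, a folate enzyme, fell from 2542 to 449 counts (-2.41, -2.55 to -2.26), and Cad, the first enzyme of pyrimidine synthesis, from 1980 to 675. Impdh1, an enzyme of guanine nucleotide synthesis, was the member that rose, from 407 to 895 counts. Genes of glutathione and oxidative defence split into 6 higher and 9 lower of 32. Gsr, glutathione reductase, rose from 937 to 10157 counts (3.53, 3.44 to 3.63) and Mgst2 from 31 to 718 (4.63, 4.11 to 5.20). Gstm1 rose from 937 to 7027, with counts that were not whole. Prdx2, a peroxiredoxin abundant in red cells, fell from 1629 to 204, and Hmox1, heme oxygenase 1, from 253 to 51. Of 25 cholesterol genes, 3 were higher and 1 lower, and 1 and 0 by edgeR's exact test. Sc5d and Hsd17b7, enzymes of cholesterol synthesis, rose from 138 to 358 and from 49 to 133 counts, and Lss, lanosterol synthase, fell from 96 to 44.

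**Figure D3:**
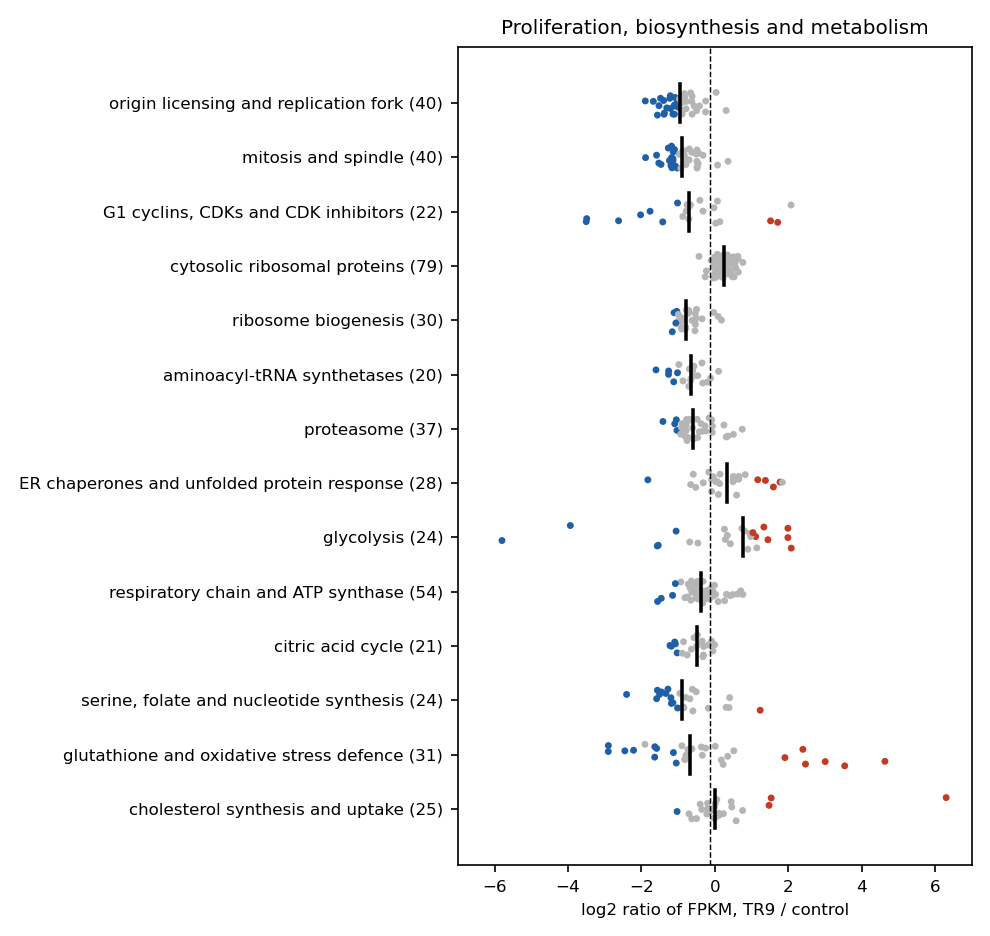
Log2 ratio of FPKM, TR9 over control, of genes of proliferation, biosynthesis and metabolism, drawn as in the plot of cell type markers. Replication and mitosis genes form tight groups with medians of -0.96 and -0.91, ribosomal proteins lie between -0.43 and 0.76, and glutathione genes spread from -2.90 to 4.63.

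Antigen presentation went in opposite directions for its classes. Of 23 class I genes, which show peptides from inside the cell, 11 were higher and none lower, 6 were higher by edgeR's exact test, and 22 were above 0 (median 0.92). H2-D1 rose from 2258 to 6844 counts and H2-K1 from 2444 to 5939 (1.38, 1.31 to 1.45). H2-Q8, a nonclassical member, rose from 40.6 to 437 counts. The counts of these class I genes were not whole, as RSEM divides reads that match near-identical copies, so the level of each single copy is uncertain. Nlrc5, the activator of class I genes, rose from 216 to 539 counts (1.42, 1.19 to 1.65) and its counts were whole. Of 13 class II genes, which antigen-presenting cells use, 6 were lower and 1 was higher (median -2.51). Cd74, the invariant chain, fell from 117 counts to 15, and H2-Ab1 from 48 to 2.

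Of 47 interferon-stimulated genes, 20 were higher and 5 lower (median 0.91), and edgeR's exact test with the assumed variation left 9 higher and 0 lower. The Reactome set of interferon alpha and beta signaling, which was not written by hand, had 1 higher of 12 and none lower (median 0.34), a share of 8.33% below the background. Oas2, which makes the activator of RNase L, rose from 25 to 557 counts (4.57, 3.99 to 5.21). Oasl2 rose from 65 to 591 and Zbp1, a sensor of Z-form nucleic acid, from 9 to 112 (3.44). Other classic members did not pass: Rsad2 had 62 and 37 counts, Ifit2 188 and 142, and Mx1 32.3 and 25.2. Iigp1, Ifi44, Isg20, Samhd1 and Oasl1 were the 5 lower members, the last with 91 and 40 counts. Samhd1 and Oasl1 were no longer called under TMM, at -0.99 and -0.98. Of the OAS family, Oas2 and Oasl2 rose, while the fall of Oasl1 was near the threshold and its call depended on the scaling.

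The promoter of Oas1g, which rose from 4.48 to 99.5 counts (4.57, 3.34 to 6.64), is shown for its interferon-stimulated response element, a pair of GAAA repeats spaced by 2 bases, searched on both strands. The element was in 20 of 41 windows of the interferon list (48.8%), in 4.81% of windows of genes called higher, in 2.63% of those called lower and in 3.13% of all. In Oas1g it occurs at 2 overlapping places, 18 and 12 bases before the start, and capitals mark both. The counts of Oas1g were not whole, so some of its reads may be those of close relatives.
Oas1g, chr5:120887614-120887863, minus strand: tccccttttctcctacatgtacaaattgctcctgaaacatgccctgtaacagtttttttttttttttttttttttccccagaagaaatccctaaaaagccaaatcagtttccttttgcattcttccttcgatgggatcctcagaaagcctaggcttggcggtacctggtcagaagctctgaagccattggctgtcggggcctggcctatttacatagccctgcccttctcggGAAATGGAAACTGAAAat

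Innate sensors and adhesion genes were mixed. Pattern recognition receptors counted 7 higher and 3 lower of 24. Clec5a, a lectin of myeloid cells, rose from 114 to 1054 counts and Tlr7, a sensor of RNA, from 25 to 130, whereas Tlr2, a sensor of bacterial lipoproteins, fell from 53 to 8. Of 20 chemokine and chemoattractant receptors, 4 were higher and 3 lower. Cxcr4, which holds immature cells in the marrow, rose from 597 to 1958 counts (1.81, 1.68 to 1.94). Of 26 integrins and adhesion genes, 10 were lower and 3 higher (median -0.51). Itga4, the chain of the integrin VLA-4 that binds VCAM-1, fell from 4641 to 1288 counts (-1.75, -1.84 to -1.66), while Vcam1, its ligand, rose from 471 to 5110 (3.54, 3.40 to 3.67). Of 20 Fc receptors and ITAM adaptors, 4 were higher and 3 lower, with Trem1, an activating receptor of neutrophils, at 19 and 216 counts.

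Among 25 genes of retinoid receptors, metabolism and targets, 6 were higher and 2 lower, and the median, -0.07, changed sign with TMM scaling (0.04). The higher genes were Rara, Rarb, Rarg, Rxra, Dhrs3 and Cyp26a1. Rarb and Cyp26a1, textbook targets of retinoic acid receptors, were low in every library. Rarb had 2 counts in control, against 48 in TR1 and 30 in TR9 (log2 ratio 4.01, 2.03 to 7.12), and Cyp26a1, the enzyme that degrades retinoic acid, had 2, 3 and 39 (4.35, 2.40 to 7.44). Dhrs3, a retinal reductase and also a retinoic acid target, had 185, 21 and 615 counts (1.78, 1.54 to 2.03), and Rarg had 90, 89 and 270. Rarb, Cyp26a1 and Rxra were named after their values were seen. TR9 was thus the highest of the 3 libraries for Dhrs3, Rarg and Cyp26a1, and TR1 for Rara and Rarb. Tgm2, a transglutaminase induced by retinoic acid, fell from 197 counts to 3, and Aldh1a1, which makes retinoic acid, from 512 to 23.9. The corepressor subunits Ncor1, Gps2, Hdac3 and Tbl1x were not called, with log2 ratios from -0.67 to 0.41.

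Immediate early genes of growth factor and stress signals were higher. Of 26 AP-1, EGR and MAPK feedback genes, 12 were higher and 3 lower (median 1.22). Egr1 had 66 counts in control, against 693 in TR1 and 1364 in TR9 (4.46, 4.11 to 4.84), Fosb had 17, 90 and 373 (4.56, 3.86 to 5.35) and Jun had 212, 846 and 1289. The control and TR9 cells were not isolated in the same way (depletion of lineage cells, and sorting on GFP), and the part of this in genes that respond to handling within minutes cannot be told apart. The feedback inhibitors moved apart from each other, with Spry2 higher and Spry4, Spred1 and Spred2 lower, and Spred2, at -1.04, was at -0.94 under TMM, below the threshold.

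Of 34 cytokine and growth factor receptors, 9 were higher and 10 lower. Csf3r, the receptor of granulocyte colony-stimulating factor, rose from 401 to 1931 counts (2.32, 2.16 to 2.48), Ifngr1 from 1186 to 5349 and Tnfrsf1b, a TNF receptor, from 287 to 2039. Receptors of other lineages fell, with Il1rl1, the interleukin-33 receptor of mast cells, at 399 and 16.5 counts. Of 24 p53 genes and targets, 7 were higher and none lower, against 3 higher by edgeR's exact test, and the median of 0.10 was -0.01 under TPM. Fas, a death receptor, had 2 counts in control, against 69 in TR1 and 77 in TR9 (5.42, 3.52 to 8.49). Of 31 DNA and histone methylation enzymes, 4 were higher and 7 lower, and 1 and 3 by that test, with Tet2 at 416 and 980 counts and Dnmt3a at 651 and 279.

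**Figure D4:**
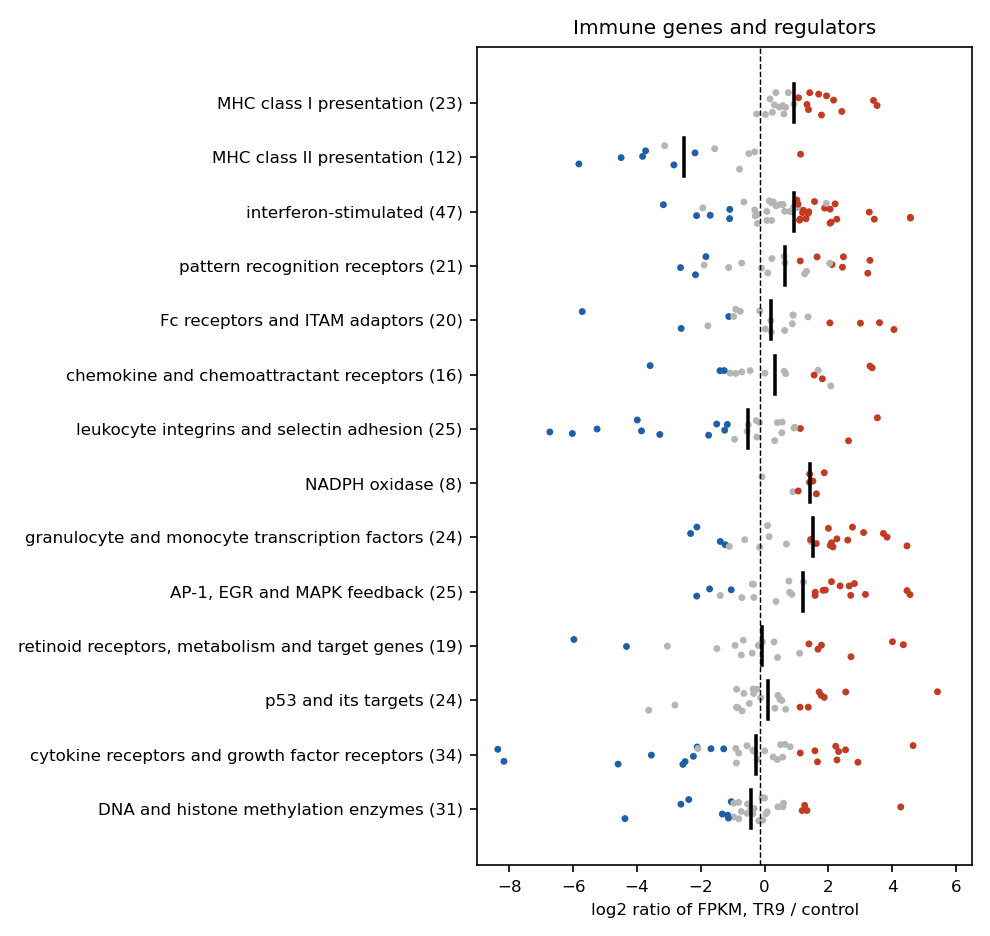
Log2 ratio of FPKM, TR9 over control, of immune genes and regulators, drawn as in the plot of cell type markers. Class I genes lie between -0.25 and 3.53 and class II genes mostly below 0 with a median of -2.51, and NADPH oxidase genes group around 1.41.

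Sex-linked genes differed between the pools. The 4 genes of the Y chromosome listed, Ddx3y, Eif2s3y, Kdm5d and Uty, had 241 to 477 counts in control and at most 3.05 in TR9 and 2 in TR1. Xist, expressed from the inactive X, had 38.2 counts in control, against 54.6 in TR1 and 211 in TR9. The pool of control mice thus held male RNA and TR9 almost none, and for any gene that depends on sex, sex and leukemia cannot be told apart. Kdm6a, an X-linked histone demethylase, had 326 counts in control, against 261 in TR1 and 59 in TR9 (-2.37, -2.80 to -1.97 against control). In TR1, which also had almost no Y-linked RNA, Kdm6a was not called against control (log2 ratio -0.35). Whether sex has a part in the level of Kdm6a was not tested.

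Set directly against TR1, TR9 had 681 of 15706 genes called higher (4.34%) and 363 lower (2.31%). Of the 1766 genes lower in TR9 than in control, 1609 (91.1%) were not called between the lines, 87 were lower still than in TR1 and 70 were higher. Of the 1527 genes higher than in control, 322 (21.1%) were also higher than in TR1, 89 were lower and 1116 were not called. Against control, TR1 had 8.09% of its genes called higher and 13% lower. The comparisons share libraries, so the shares are not independent of each other. A gene not called between the lines is not shown to be equal in them.

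The genes highest in TR9 against both other libraries included several that are known from tissues other than blood. Strc, stereocilin of the inner ear, had 2 counts in control, against 1 in TR1 and 310 in TR9, with a log2 ratio against TR1 of 8.43 (5.95 to 13.74). Minar1 had 0, 8 and 739 counts, Umodl1 had 0, 2 and 193, and Plagl1, an imprinted zinc finger factor, had 7, 4 and 370. Tdrkh and Wbp2nl, known from the male germ line, had 50 and 0 counts in control, 0 and 1 in TR1, and 180 and 34 in TR9. Xlr, an X-linked lymphocyte gene, had 10.4, 0 and 284 counts. Fkbp6, an immunophilin needed in meiosis, had 1.03, 13.8 and 212. Of these 8 genes, Tdrkh and Xlr reached 10 counts in control, and Fkbp6 did so in TR1.

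Of the genes described above, Igll1, Ngp, Camp, Pecam1, Pdgfrb, Kitl, Dhrs3 and Ly6a were among those called higher in TR9 than in both control and TR1. The genes lowest in TR9 against both included immune signaling genes. Flt3, a receptor of progenitors and dendritic cells, had 327 counts in control, against 792 in TR1 and 126 in TR9 (-2.53, -2.81 to -2.26 against TR1). Csf1, macrophage colony-stimulating factor, had 196, 243 and 34 counts, Csf2rb2, the interleukin-3 receptor chain, had 154, 146 and 25.5, and Sla, an adaptor that dampens antigen receptor signals, had 528, 1632 and 217. Cbx6, a Polycomb subunit, was also lower in TR9 than in both, at 67.7 counts against 446 in control and 207 in TR1.

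**Figure D5:**
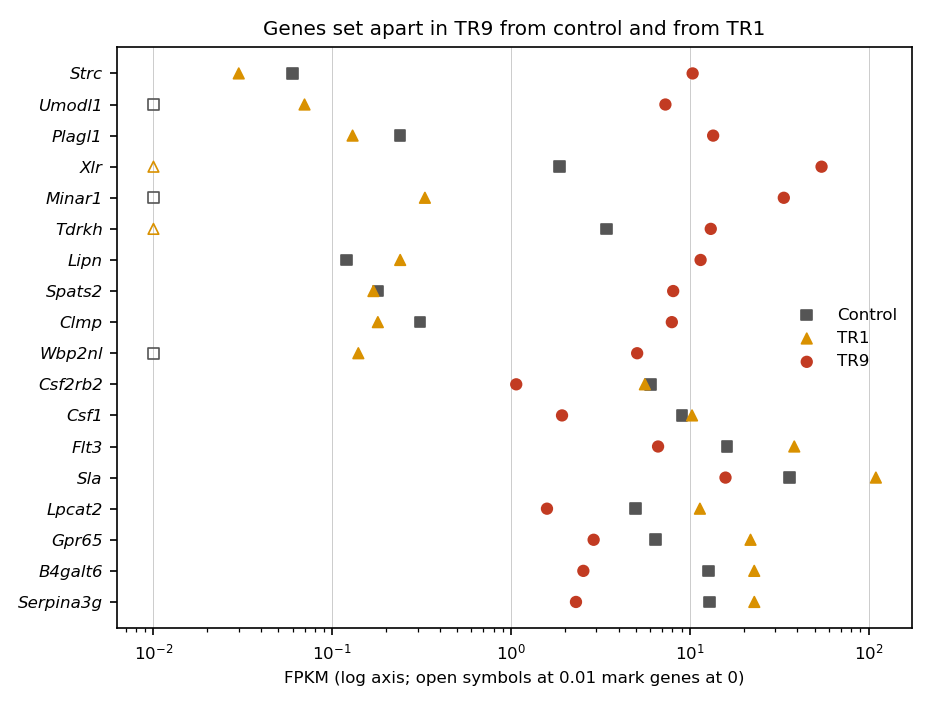
FPKM on a log axis in control (squares), TR1 (triangles) and TR9 (circles) of the 10 genes highest and the 8 lowest in TR9 against TR1 among those called the same way against control. Open symbols at the left mark genes at 0, as Minar1 in control; TR9 lies right of both other libraries for the upper 10 genes and left of both for the lower 8.

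Further genes with high or low ratios to control fell outside the groups above. Thbs4, thrombospondin 4, a secreted matrix protein, had 17 counts in control and 9975 in TR9 (9.30, 8.62 to 10.08). Ces1d, a carboxylesterase, had 2 and 849, and Heph, hephaestin, a ferroxidase of iron export, had 6 and 966 (7.45, 6.32 to 8.90), against 227 in TR1. C3, the central complement protein, rose from 559 to 7465 counts (3.84, 3.71 to 3.96). The lowest ratio of all was that of Abcb4, a phospholipid transporter, with 1598 counts in control and 1 in TR9 (-10.47, -15.77 to -7.99).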

How the data were processed

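RNA-seq of 3 libraries, 1 each for control, TR1 and TR9 and each a pool of 3 mice, was analysed, with groups taken from the labels. After filtering, the authors aligned reads by BWA and Bowtie and estimated gene expression by RSEM, and the submitters' processing notes give mm9 as build. The authors deposited an expected count per gene, not normalized, and the FPKM, which RSEM scaled for gene length and library total, both by NCBI Gene ID. Deposited gene lengths were not used. Of 16742 IDs, 16698 were matched to symbols in the RefSeq table (GRCm38.p6), the source of names and promoter windows alone.

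After rounding, expected counts of a pair of libraries were put to a conditional exact Poisson test in scipy 1.17.1, adjusted by Benjamini-Hochberg over all genes listed in either library. Calls needed a false discovery rate not above 0.001 and a log2 FPKM ratio of 1 or more in size, the thresholds of the study's methods. For the call alone, FPKM under 0.01 was set to 0.01, a floor chosen here, whereas printed folds and medians of genes at 0 use 3 counts. Medians leave out genes at 3 counts or fewer in both libraries, so 13852 genes entered them. At these depths 3 counts were 0.547 ppm of control and 0.585 ppm of TR9. Between 19.9% and 21.2% of listed genes had counts more than 0.005 from a whole number. The test was checked on simulated data for the 16303 genes of TR9 against control. Of 200 genes changed by a log2 ratio of 2, 191 were recovered, and 0 unchanged genes were called. Both simulated libraries had Poisson spread alone, the spread that the test assumes, and the changed genes were drawn above a minimum count. The check thus covers the code and says nothing on false calls from spread between mice.

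The genes compared and the 45 hand-written lists, with 14 mouse Reactome sets, were chosen with earlier results of these data known, and counts and medians only describe them. Genes named in the text were those that check the labels, up to 3 members per list and direction with at least 5 FPKM in the higher library, the 12 highest and 12 lowest called genes with at least 20 FPKM, the 10 highest FPKM in TR9, and the 10 highest and 8 lowest against TR1 of those called the same way against control. Genes named beyond this rule were chosen after their values were seen. One gene of the 12 lowest has no symbol, some genes that the rule names are not reported here, and of the Reactome sets only those named are reported.

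Alternatives were TMM (edgeR 4.0.16 in R 4.3.3), median-of-ratios (DESeq2 1.42.0) and TPM scaling, a pseudocount of 1 FPKM, a floor of 0.001 FPKM, minimums of 1 FPKM and 10 counts, edgeR's exact test with an assumed variation of 0.2, a false discovery rate of 0.05 and a log2 ratio of at least 2. Scripts ran in Python 3.11.15 with pandas 2.3.3, numpy 2.4.6 and matplotlib 3.10.9.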

Additional observations from a re-analysis of the deposited data

Results flagged for a closer look

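In the named genes, 7 were called in opposite directions in TR9 and TR1 against control. Each was also called in the direct comparison of the reads of TR9 and TR1. Opposite calls against the same control already set the lines far apart, so the direct call adds no separate support. Some of the 7, such as Flt3, were also named through their call against TR1. There is 1 library per line, so the difference between lines was not tested across mice. The comparisons share the control library.

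Higher in TR9 and lower in TR1 were Tie1, a receptor kinase of endothelium and stem cells, Dhrs3 and Tdrkh. Tie1 had a log2 ratio against control of 1.53 in TR9 and -2.88 in TR1, with 115 counts in control, against 16 in TR1 and 311 in TR9. Dhrs3 had 1.78 and -2.95. Tdrkh had 1.94 in TR9, and in TR1, where it had 0 counts, it was at least 16.9-fold lower than control.

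Lower in TR9 and higher in TR1 were Flt3, with log2 ratios of -1.28 and 1.25, Gpr65, a proton-sensing receptor, with -1.15 and 1.77, Lpcat2, an enzyme that makes platelet-activating factor, with -1.65 and 1.19, and Sla, with -1.19 in TR9, and 1632 counts in TR1 against 528 in control. The ratio of Gpr65 in TR9 was -1.04 under TMM scaling and -0.93 with a pseudocount of 1 FPKM, and it was no longer called in either.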

How the results depend on the processing

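The 4 counts of called genes stayed within 1.5 times under the scalings, floors, minimums, pseudocount and false discovery rate tried. Over these settings, 1346 to 1788 genes were higher and 1503 to 2129 lower in TR9 than in control, and 535 to 960 higher and 319 to 486 lower in TR9 than in TR1. Under the exact test of edgeR at its assumed variation the counts were 717 and 830 against control, and 188 and 94 against TR1. With an absolute log2 ratio of at least 2 they were 738 and 928, and 283 and 135. Both settings are stricter by construction. No value named changed direction while called. Of the 248 genes the naming rule gave, 10 were no longer called under TMM, 5 under the median of ratios, 2 under TPM and 5 with the pseudocount. TMM, the median of ratios and TPM shifted all log2 ratios by 0.11, 0.08 and -0.11, so medians near 0 (retinoid, Notch and Wnt, cholesterol, p53) have no stable sign. The pseudocount drew the erythroid median to -5.05, the megakaryocyte median to -4.16 and the dendritic cell median to -0.42, and the median of the Hox list was -4.42 with genes at 0 set to 0.01 FPKM. No paired analysis was possible because each group had 1 library. Depth limits genes under 3 counts, and no setting stands in for the spread between mice.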

Other observations

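Sphingolipid enzymes changed in both directions. Of 58 listed genes of the Reactome set of sphingolipid metabolism, 13 were called higher (22.4%) and 10 lower (17.2%) in TR9 than in control. By edgeR's exact test with the assumed variation, 3 were higher and 7 lower. Sgms2, a sphingomyelin synthase, had 257 counts in control, against 1707 in TR1 and 3411 in TR9 (log2 ratio 3.82, 3.64 to 4.01, TR9 against control), while Sgms1, which catalyzes the same reaction in the Golgi, had 172, 15.3 and 8.32. Cerk, ceramide kinase, rose from 314 to 1169 counts, whereas Sphk1, which phosphorylates sphingosine, had 533 counts in control and 0 in TR9, at least 166-fold lower. St3gal5, the enzyme that makes the ganglioside GM3, fell from 541 counts to 4.34 (-6.92, -8.92 to -5.67). Which cells of the control library held Sphk1 and St3gal5 was not tested.

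The Reactome set of integrin interactions counted 9 higher and 25 lower of 72 with a median below that of all genes. Agrn, agrin, rose from 123 to 631 counts and Fn1, fibronectin, from 335 to 1268, against 4407 in TR1, while Cdh1, E-cadherin, had 231 counts in control and 1 in TR9. Of 41 Notch and Wnt genes, 4 were higher (9.76%) and 5 lower (12.2%), close to the shares of all genes. Notch1 rose from 403 to 838 counts and Notch2 fell from 972 to 344, and the ligand Jag1 had 4 counts in control, against 132 in TR1 and 125 in TR9.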
